A study of Sus scrofa with 17 samples.

Results

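The expression of 10 genes of the antioxidant defence was followed in the longissimus dorsi muscle of weaned piglets. They were the regulator NFE2L2, its known targets HMOX1, NQO1, GCLC, GCLM and TXNRD1, and SOD1, SOD2, CAT and GLRX3, chosen by their symbols among the 31908 Ensembl genes with deposited counts. All 10 were found, and all 10 were among the 14203 genes that passed the filter on low counts. The male Large White × Duroc piglets entered the trial at 28 days of age and, after 5 days of adaptation, were fed for 2 weeks. The control group (n = 6) had a wheat, maize and soybean meal diet without seaweed, the UL group (n = 6) a diet with 7% Ulva lactuca, a green seaweed, and the ULU group (n = 5) the diet with 7% Ulva lactuca and 0.01% ulvan lyase, which degrades ulvan, a polysaccharide of its cell walls. Feed was given on a pair-feeding basis, no piglet had the enzyme without the seaweed, and RNA was read once per piglet, at slaughter.

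NFE2L2 encodes NRF2, a transcription factor that is held in the cytosol by KEAP1 and marked for degradation by a ubiquitin ligase built on CUL3. Oxidants and electrophiles modify KEAP1, NRF2 then accumulates, and with small MAF proteins it binds antioxidant response elements near genes of glutathione synthesis, thioredoxin reduction, quinone reduction and haem breakdown. Much of this control acts on the protein, so the amount of NFE2L2 mRNA and the activity of NRF2 are different quantities. In skeletal muscle, superoxide arises in mitochondria and at membrane oxidases of working fibres, SOD1 and SOD2 turn it into hydrogen peroxide in the cytosol and in mitochondria, and catalase, peroxiredoxins and glutathione peroxidases remove the peroxide.

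The comparisons asked whether the seaweed diet, with or without the enzyme, came with another level of these transcripts. In ULU vs control, GLRX3, a glutaredoxin of iron-sulphur cluster delivery, was 1.41-fold higher and the only 1 of the 10 genes that passed the test. Of all genes tested, 2.98% passed it in this comparison. The call of GLRX3 was near the threshold (edgeR quasi-likelihood F test, adjusted p = 0.0485) and was lost in 19 of 26 alternative fits. SOD2, the mitochondrial superoxide dismutase, lay above every control library in every ULU library, and NFE2L2 lay below every control library in every ULU library, but neither passed the test over all genes. Of all genes, 2.3% lay above control without overlap in ULU and 1.09% below it. The 10 genes gave no call in UL vs control or in ULU vs UL, and none of them was a differentially expressed gene (DEG) by the study's limits, an adjusted p under 0.05 together with an absolute log2(fold change) of 1 or more.

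Gene counts summed to 16137365 to 26546810 reads per library. The median depth was highest in ULU (22320520), followed by UL (18398491.5) and control (17240387). Counts were scaled with TMM factors and are given as CPM, that is relative to the scaled total of each library. A count of 3 reads corresponded to between 0.113 and 0.186 CPM of the unscaled total, and the lowest count of any of the 10 genes in a library was 46 reads, of HMOX1. Skeletal muscle markers were abundant, with at least 1046505 reads of ACTA1 and 354573 of MYH2 in each library. Counts on the mitochondrial chromosome made up 10.2% ± 1.47 (SD, n = 5) of the ULU libraries, 11.6% ± 2.11 (SD, n = 6) of UL and 14.8% ± 0.697 (SD, n = 6) of control. This share did not overlap between control (14.05% to 15.9%) and ULU (8.002% to 11.6%), with a two-sided exact permutation p = 0.00433 and an adjusted p = 0.130 over 30 tests of library measures. This share and the ULU diet can therefore not be told apart in these libraries. In bulk muscle RNA, fewer cells of a type and less RNA per cell cannot be told apart either.

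Expressed per kb of exon, the 10 genes spanned from a mean of 115 ± 30.5 CPM per kb (SD, n = 17) for SOD2 to 1.27 ± 0.321 CPM per kb (SD, n = 17) for GCLC. SOD2 stood above 97.9% of the genes tested in this measure, SOD1 above 96.0% and CAT above 95.1%. The next group held NQO1 (33.0 CPM per kb), NFE2L2 (28.3 CPM per kb) and GLRX3 (26.8 CPM per kb), neighbours whose order held in 9 of 17 libraries for NQO1 over NFE2L2 and in 9 of 17 for NFE2L2 over GLRX3. TXNRD1 and GCLM followed with 10.8 and 9.60 CPM per kb and did not separate, since TXNRD1 was the higher in 10 of 17 libraries. HMOX1 (1.45 CPM per kb) and GCLC came last and overlapped. The clear steps were between SOD2 and SOD1, between GLRX3 and TXNRD1 and between GCLM and HMOX1, where the ranges over the 17 libraries were apart. SOD1 and CAT overlapped, as did CAT and NQO1.

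**Figure D1:**
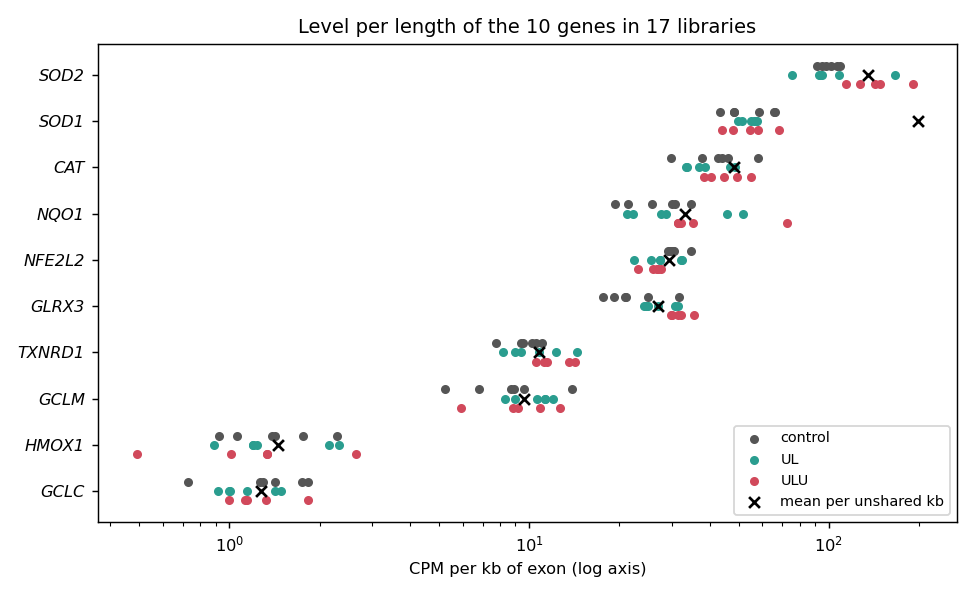
Level of the 10 genes in CPM per kb of exon on a log axis, 1 point per library, coloured by diet, with crosses for the mean per kb of exon that no other gene overlaps. GCLC and HMOX1 lie near 1 CPM per kb and SOD2 near 115, and the cross of SOD1 stands far to the right of its points.

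The place of SOD1 depends on how its exons are counted. Of its 3047 exonic bases, 2209 are also exon of SCAF4 on the opposite strand, and the counting command in the header held no option for strand or for reads on overlapping genes. Reads on these shared bases would then be left out or could not be told apart by strand. Per kb of the 838 bases that SOD1 does not share, its mean was 199 CPM per kb, above SOD2 with 135 CPM per kb in 16 of 17 libraries. SOD2 shares 682 of 4644 exonic bases with WTAP, CAT shares 534 of 4664 with ENSSSCG00000042255, which had a mean of 1.53 reads, and NFE2L2 shares 128 of 3819 with AGPS. SCAF4, WTAP and AGPS had no call in any comparison, and their log2(fold change) was between -0.08 and 0.06.

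NFE2L2 (ENSSSCG00000015987, chromosome 15, 82973648 to 83146183 of Sscrofa11.1, minus strand) was the steadiest of the genes, with a coefficient of variation of 11.4% over the 17 libraries. The control libraries 21 to 26 held 132, 111, 116, 113, 115.5 and 115 CPM. The UL libraries 27 to 32 held 123, 122, 105, 104.4, 85.3 and 97.5 CPM, and the ULU libraries 40 to 44 held 87.9, 105, 102, 103 and 98.8 CPM. UL thus overlapped control, with 27 and 28 inside its range and the other 4 libraries below it, while the ULU libraries all lay under the lowest control. Its log2(fold change) was -0.24 ± 0.10 (SE) in ULU vs control, with an unadjusted p = 0.0290 and an adjusted p = 0.205, -0.14 ± 0.10 (SE) in UL vs control, with an adjusted p = 0.645, and -0.097 ± 0.10 (SE) in ULU vs UL, with an adjusted p = 0.797. Among all genes tested, 1.09% lay without overlap below control in ULU.

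HMOX1 (ENSSSCG00000039745), heme oxygenase 1, opens the haem ring and is among the most inducible NRF2 targets. The annotation places it on an unplaced scaffold, from 1951725 to 1963831. It had 6.42, 8.15, 4.91, 4.25, 6.57 and 10.5 CPM in control, 4.12, 5.54, 9.91, 5.54, 10.7 and 5.71 CPM in UL, and 12.2, 6.17, 6.15, 2.26 and 4.66 CPM in ULU. The highest and the lowest library of all 17 were both ULU, libraries 40 and 43, so its coefficient of variation was 40.4% and the groups lay over each other. Its log2(fold change) of -0.12 in ULU vs control had a 95% interval from -0.83 to 0.59, and that of 0.021 in UL vs control an interval from -0.65 to 0.70, with adjusted p-values of 0.886 and 0.990.

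NQO1 (ENSSSCG00000002754, chromosome 6, 17292769 to 17302590, plus strand) reduces quinones and is a classical NRF2 target. The values were 58.5, 36.9, 66.2, 48.8, 56.9 and 40.8 CPM in control, 42.4, 52.5, 54.5, 86.8, 98.3 and 40.4 CPM in UL, and 138, 59.8, 61.1, 59.7 and 67.2 CPM in ULU. Library 40 of ULU and libraries 30 and 31 of UL stood above the rest, and the other 4 ULU libraries fell in the upper part of the control range or just past it. For ULU vs control this gave a log2(fold change) of 0.59 ± 0.26 (SE, unadjusted p = 0.0331, adjusted p = 0.217), the largest of the 10 genes in this comparison. Without ULU library 40 it was 0.27, and with the mitochondrial share as a covariate it was -0.21.

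The 2 genes of glutamate-cysteine ligase, the first enzyme of glutathione synthesis, had unlike levels. GCLC (ENSSSCG00000001488, chromosome 7, 27209564 to 27253535), the catalytic subunit, had 2.97 to 7.47 CPM in control (median 5.54), 3.73 to 6.08 CPM in UL (median 4.38) and 4.07 to 7.48 CPM in ULU (median 4.67). GCLM (ENSSSCG00000037549, chromosome 4, 123371193 to 123390135), the modifier subunit, had 26.8 to 70.97 CPM in control (median 45.0), 42.6 to 61.2 CPM in UL (median 56.0) and 30.4 to 65.0 CPM in ULU (median 47.1). The control libraries spread the most for GCLM, with library 24 at the top and library 25 at the bottom of all 17. No comparison passed the test for either gene, with adjusted p-values from 0.715 to 0.876. For ULU vs control the 95% interval of the log2(fold change) was -0.57 to 0.36 for GCLC and -0.32 to 0.53 for GCLM, so a change of 1 in either direction lay outside both.

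TXNRD1 (ENSSSCG00000000843, chromosome 5, 80168523 to 80288075, minus strand), the cytosolic thioredoxin reductase, had 44.1, 54.3, 53.4, 63.0, 58.4 and 59.9 CPM in control. UL held 82.5, 46.8, 70.0, 53.3, 61.6 and 51.1 CPM, and ULU 77.1, 63.9, 65.5, 60.1 and 81.1 CPM. Of the 5 ULU libraries, 4 lay above all controls, and library 43 lay among the upper controls. ULU vs control gave a log2(fold change) of 0.33 ± 0.14 (SE, unadjusted p = 0.0301, adjusted p = 0.208), and -0.056 with the mitochondrial share as a covariate.

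GLRX3 (ENSSSCG00000010759, chromosome 14, 139072575 to 139111249, plus strand) is a cytosolic monothiol glutaredoxin that carries iron-sulphur clusters. The control libraries held 85.0, 59.9, 65.4, 71.8, 107 and 71.3 CPM, the UL libraries 107, 83.7, 84.8, 82.0, 105 and 91.4 CPM, and the ULU libraries 109, 102, 107, 121 and 101 CPM. Control library 25 reached the level of ULU, the other 5 controls lay below all ULU libraries, and UL overlapped both. The mean level was 108 ± 7.88 CPM (SD, n = 5) in ULU, against 92.3 ± 10.99 CPM (SD, n = 6) for UL and 76.8 ± 17.2 CPM (SD, n = 6) in control. ULU exceeded control by a log2(fold change) of 0.49 ± 0.13 (SE, 95% interval 0.22 to 0.76), with an adjusted p = 0.0485, just inside the threshold of 0.05. UL vs control gave 0.27 ± 0.12 (SE, unadjusted p = 0.0468, adjusted p = 0.457) and ULU vs UL 0.23 ± 0.13 (SE, unadjusted p = 0.0995, adjusted p = 0.562). Both comparisons against control share the same 6 control libraries.

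The call of GLRX3 was near the threshold and changed with the libraries and the model. Leaving out 1 library at a time, it was kept without control 21 (adjusted p = 0.0475), control 25 (adjusted p = 0.00635) or UL 27 (adjusted p = 0.0429), and lost without each of the other 14, with adjusted p-values up to 0.119 and a log2(fold change) between 0.44 and 0.61 over all 17 fits. DESeq2 on the 2 diets called it (adjusted p = 0.0262), as did DESeq2 on all libraries (adjusted p = 0.00998). edgeR on the libraries of the 2 diets did not (adjusted p = 0.0972), nor did the fit without scaling factors, with a log2(fold change) of 0.32 and an adjusted p = 0.129. With the mitochondrial share as a covariate the log2(fold change) was 0.49 again, but its SE was 0.22 and the adjusted p = 0.438. With the total count as a covariate it was 0.37, with an adjusted p = 0.332.

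**Figure D2:**
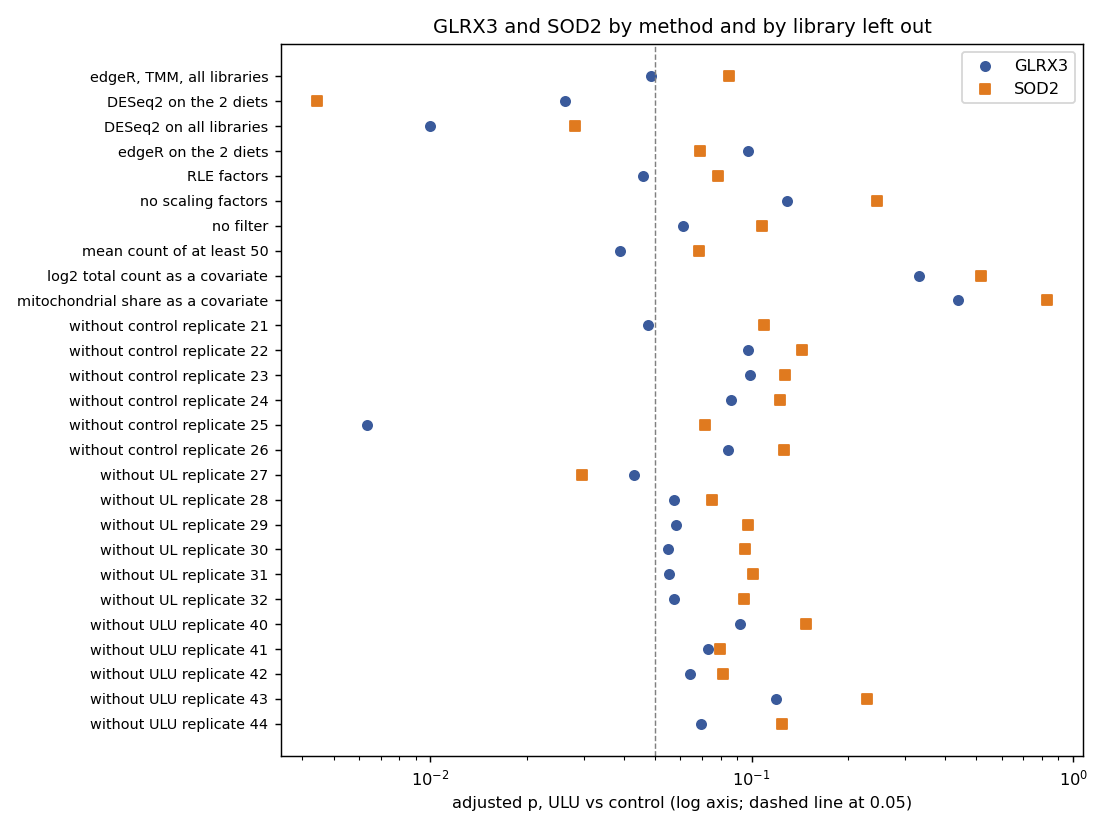
Adjusted p of GLRX3 (circles) and SOD2 (squares) in ULU vs control on a log axis, for edgeR with TMM factors on all libraries, for the other methods and for each library left out, with a dashed line at 0.05. GLRX3 lies between 0.00635 and 0.438 and crosses the line in both directions, and SOD2 lies to the left of it for DESeq2 and without UL library 27.

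SOD1 (ENSSSCG00000021355, chromosome 13, 195326649 to 195337749, plus strand), the cytosolic copper-zinc enzyme, had means that lay closer together than the spread within a diet, at 166 ± 28.7 CPM (SD, n = 5) in ULU, 166 ± 9.77 CPM (SD, n = 6) for UL and 168 ± 29.7 CPM (SD, n = 6) in control. Its 95% interval in ULU vs control was -0.28 to 0.25 in log2(fold change), and the estimate was -0.012 in both comparisons against control.

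SOD2 (ENSSSCG00000040317, chromosome 1, 7651280 to 7691723, plus strand), the manganese enzyme of mitochondria, had 454, 423, 493, 474, 507 and 441 CPM in control, 773, 350.0, 433, 429.5, 502 and 439 CPM in UL, and 688, 528, 589, 883 and 661 CPM in ULU. The 6 controls were close together, all 5 ULU libraries lay above them, and 5 of the 6 UL libraries lay at or under the highest control while library 27 stood far above it. Its log2(fold change) was 0.53 ± 0.17 (SE, 95% interval 0.18 to 0.87) in ULU vs control, with an unadjusted p = 0.00494 and an adjusted p = 0.0848. In ULU vs UL it was 0.46 ± 0.17 (SE, unadjusted p = 0.0122, adjusted p = 0.323), and in UL vs control 0.068 ± 0.16 (SE, adjusted p = 0.919). Without UL library 27, which enters the shared estimate of the spread, ULU vs control had an adjusted p = 0.0296. DESeq2 called SOD2 in ULU vs control on the 2 diets (adjusted p = 0.00445) and on all libraries (adjusted p = 0.0281). These fits called 3.34% of 24673 genes and 4.17% of 25660 genes with a p-value. The edgeR shares are of 14203 genes left by its filter on low counts, so the 2 kinds of share have unlike denominators. In ULU vs UL, DESeq2 on all libraries called SOD2 with an adjusted p = 0.0487, beside 0.982% of 25660 genes. With the mitochondrial share as a covariate the log2(fold change) of ULU vs control was 0.20, with an adjusted p = 0.826.

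CAT (ENSSSCG00000013302, chromosome 2, 26487653 to 26581452, minus strand), catalase, had 215, 199, 176, 271, 205 and 139 CPM in control, 219, 227, 156, 172, 180.5 and 156 CPM in UL, and 189, 257, 179, 230.3 and 209 CPM in ULU. The control range held all UL and ULU libraries. Differences were small, with a log2(fold change) of 0.083 ± 0.15 (SE, adjusted p = 0.807) in ULU vs control and -0.12 ± 0.14 (SE, adjusted p = 0.818) in UL vs control.

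**Figure D3:**
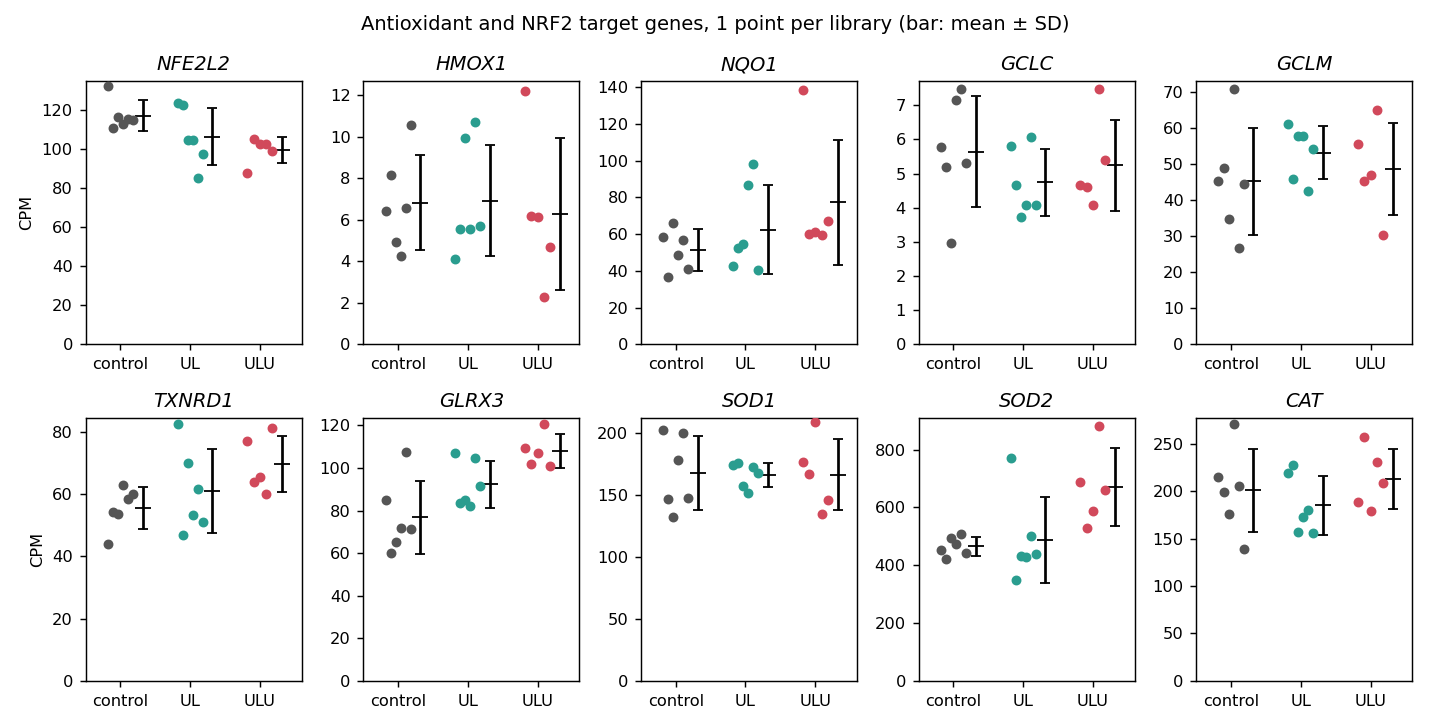
CPM of the 10 genes in each library, by diet, with the mean and SD at the right of each group and axes that start at 0. The 5 ULU points lie above all 6 control points for SOD2 and below all 6 for NFE2L2, and single high points stand out for NQO1 in ULU and SOD2 in UL.

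Read against all genes, ULU vs control was the comparison with the most calls. There 1 of the 10 genes was called higher and 0 lower, beside 2.98% of all 14203 genes called in either direction, 1.99% called higher and 0.993% called lower. An unadjusted p under 0.05 was reached by 5 of the 10 genes, namely GLRX3, SOD2, NFE2L2, TXNRD1 and NQO1, and by 18.9% of all genes. Groups without overlap were found for SOD2 (higher) and NFE2L2 (lower), 2 of 10, beside 3.39% of all genes, of which 2.3% of all genes were higher and 1.09% lower. The 10 genes had 0 DEGs, beside 0.415% of all genes. Their median log2(fold change) was 0.095, with -0.028 over all genes, and 6 of 10 estimates were positive.

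In UL vs control, edgeR called 0 of the 10 genes and 0% of all genes, while 10.8% of all genes and 1 of the 10, GLRX3, had an unadjusted p under 0.05. DESeq2 called 149 genes on the 2 diets and 152 on all libraries in this comparison, none of the 10 among them. The groups overlapped for all 10 genes, beside 0.852% of all genes without overlap, and the median log2(fold change) was 0.044, with -0.0027 over all genes. In ULU vs UL, edgeR called 0 of the 10, beside 0.0352% of all genes and 0.0141% that were DEGs, and SOD2 was the 1 gene of the 10 with an unadjusted p under 0.05, beside 10.8% of all genes. The groups overlapped for all 10, beside 1.75% of all genes without overlap. The median log2(fold change) there was 0.17, with -0.021 over all genes.

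**Figure D4:**
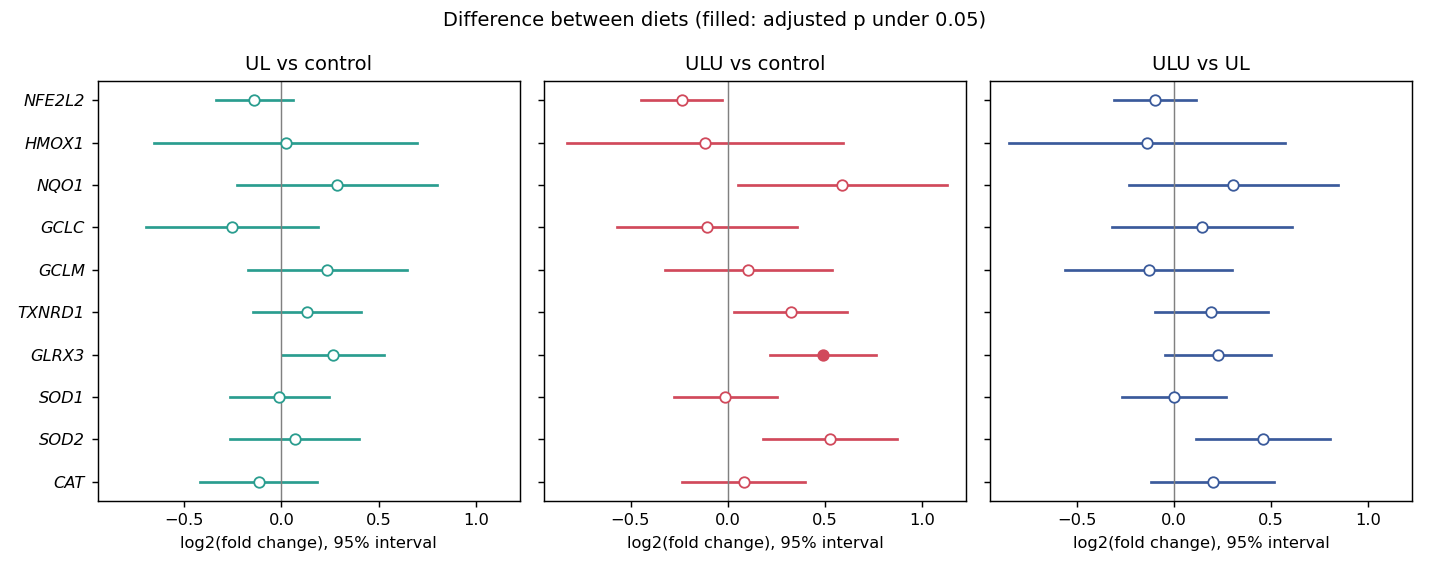
The log2(fold change) of the 10 genes with its 95% interval in the 3 comparisons, filled where the adjusted p was under 0.05. GLRX3 in ULU vs control (0.49) is the only filled point, the intervals of SOD2 lie above 0 for both ULU comparisons, and those of HMOX1 are the widest.

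The scaling bears on the sign of the small differences. Without TMM factors the median log2(fold change) of all genes in ULU vs control moved from -0.028 to -0.21, and of all calls 65 were then higher and 347 lower, against 282 higher and 141 lower with TMM. Under that scaling the estimates of GCLM and CAT in ULU vs control turned negative (-0.12 and -0.10), and GLRX3, SOD2, TXNRD1 and NQO1 stayed positive.

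Within diets, after the mean of each diet was taken away, 45 pairs of the 10 genes were compared over the 17 libraries. For GLRX3 and SOD2, Pearson's r was 0.54 (permutation within diets, p = 0.00068, adjusted p = 0.0306) and Spearman's rho 0.63 (p = 0.00546, adjusted p = 0.197, by permutation). Without the 2 libraries farthest from the median of GLRX3, r was 0.49. No other pair had an adjusted p under 0.05. The next smallest p-values of r belonged to pairs of unlike sign, with r of -0.53 for HMOX1 and CAT (permutation p = 0.0278, adjusted p = 0.298) and 0.65 for GCLC and GLRX3 (permutation p = 0.0208, adjusted p = 0.298). CPM values of a library share its scaling, which enters every such r.

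As a description over the 17 libraries, the named genes most like NFE2L2 within diets were NCOA4 (r = 0.83), RPSA (r = 0.82) and RPUSD4 (r = 0.75). Those most like HMOX1 were SMPDL3A (r = 0.88), ADAMTSL2 (r = 0.82) and TBL2 (r = 0.81), and those most like CAT were OXR1 (r = 0.80), FGD6 (r = 0.79) and IRS1 (r = 0.79).

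Of 87 other genes of redox defence in 7 lists, 77 were tested, and 3 were called in ULU vs control, 1 higher and 2 lower, with 0 in each of the other comparisons. An unadjusted p under 0.05 was reached by 18 of the 77 in ULU vs control, 9 higher and 9 lower, beside 18.9% of all genes, and by 13 in the comparison of UL with control and 10 for ULU vs UL, beside 10.8% of all genes in each. For ULU vs control their median log2(fold change) was 0.079. The 3 called of 77 stand beside 2.98% called of all genes.

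In the list of NRF2 regulators and a related factor (8 of 10 tested), only the related factor, NFE2L1, was called. It encodes NRF1, a relative of NRF2 that controls proteasome genes. It had 34.7, 43.0, 37.2, 41.5, 44.9 and 47.1 CPM in control and 57.2, 48.6, 62.7, 62.3 and 52.1 CPM in ULU, without overlap, with UL from 37.3 to 51.1 CPM. ULU vs control gave a log2(fold change) of 0.45 ± 0.11 (SE, adjusted p = 0.0337). The call was lost without any 1 of control 21, 22, 23 or 24 or ULU 40, 42 or 43, with adjusted p-values up to 0.0953. NFE2L1 was not called either with edgeR on the 2 diets, without filter or without scaling factors (0.25, adjusted p = 0.306). With the mitochondrial share or the total count as a covariate the call was also lost, with adjusted p-values up to 0.363. KEAP1, the cytosolic anchor of NRF2, and CUL3 had no call, with values of 0.13 and 0.14 in log2(fold change) for ULU vs control. NFE2L1 and NFE2L2 thus had estimates of opposite sign in ULU vs control, a difference between the genes that was not tested.

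Glutathione enzymes (18 of 21 tested) had 1 call, the DEG CHAC1, which degrades glutathione and is known as a gene of the integrated stress response. It had 23.1, 21.1, 123, 20.2, 24.9 and 90.4 CPM in control, 19.5, 4.16, 11.6, 8.19, 5.63 and 22.8 CPM in UL, and 5.76, 20.8, 5.54, 3.59 and 10.3 CPM in ULU. Control libraries 23 and 26 stood far above the rest. The other 4 controls, with 20.2 to 24.9 CPM, lay near the highest ULU library (20.8 CPM) and above the remaining ULU libraries (3.59 to 10.3 CPM). The log2(fold change) was -2.46 ± 0.60 (SE, adjusted p = 0.0337) in ULU vs control and -2.07 ± 0.55 (SE, adjusted p = 0.171) in UL vs control. Without control 23 the first was -1.98 (adjusted p = 0.0773) and without control 26 -2.20 (adjusted p = 0.0672). The call was also lost without any 1 of ULU 40, 42, 43 or 44, with adjusted p-values up to 0.0837. CHAC1 was not called either with edgeR on the 2 diets (adjusted p = 0.0657), or with the total count (adjusted p = 0.222) or the mitochondrial share (adjusted p = 0.259) as a covariate. Of the enzymes that make or reduce glutathione, GSS and GSR had a log2(fold change) of -0.037 and -0.0046 in ULU vs control.

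The sources of oxidants (6 of 9 tested) had 1 call, monoamine oxidase A, MAOA, an enzyme of the outer mitochondrial membrane that releases hydrogen peroxide, paired with its symbol by position. It had 15.1, 14.7, 17.7, 15.04, 11.8 and 11.8 CPM in control, 10.96, 12.5, 10.5, 11.13, 9.04 and 13.2 CPM in UL and 8.81, 7.79, 6.75, 7.98 and 10.9 CPM in ULU. All ULU libraries lay below all controls, with a log2(fold change) of -0.76 ± 0.15 (SE, adjusted p = 0.0122), a call that was kept in all 17 fits that left out 1 library. The call was lost with the total count as a covariate (-0.65, adjusted p = 0.178) and with the mitochondrial share as a covariate (-0.66, adjusted p = 0.329). UL vs control gave -0.36 ± 0.14 (SE, adjusted p = 0.352). The NADPH oxidase genes CYBA, NOX4 and NCF1, chosen here after their values were seen, had values from -0.40 to -0.34 in ULU vs control, with adjusted p-values of 0.481 or more.

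The other 4 lists had no call. For NADPH supply (7 of 8 tested), which feeds both glutathione and thioredoxin reduction, the smallest p-values belonged to the mitochondrial enzymes IDH2 and NNT, with a log2(fold change) of 0.50 (adjusted p = 0.0537) and 0.37 (adjusted p = 0.0875) in ULU vs control. Thioredoxins and peroxiredoxins (14 of 15 tested) had 13 positive estimates of 14 in ULU vs control, beside 47.0% of all genes, with a median of 0.23. PRDX2, a peroxiredoxin of the cytosol, had 0.38 (adjusted p = 0.105) there, and PRDX5 had 0.29 (adjusted p = 0.416) in UL vs control. In haem and iron handling (7 of 7 tested), the iron exporter gene SLC40A1 had -0.51 (adjusted p = 0.215) in UL vs control and -0.50 (adjusted p = 0.0899) in ULU vs control, and HMOX2, the constitutive heme oxygenase, had 0.32 (adjusted p = 0.284) in ULU vs UL, where its groups did not overlap. In the list of other antioxidant and repair genes (17 of 17 tested), SELENOP, a selenium carrier protein, had -0.50 (adjusted p = 0.213) in UL vs control and -0.49 (adjusted p = 0.0869) in ULU vs control, and ALDH2, the mitochondrial aldehyde dehydrogenase, had 0.60 (adjusted p = 0.0844) in ULU vs control.

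**Figure D5:**
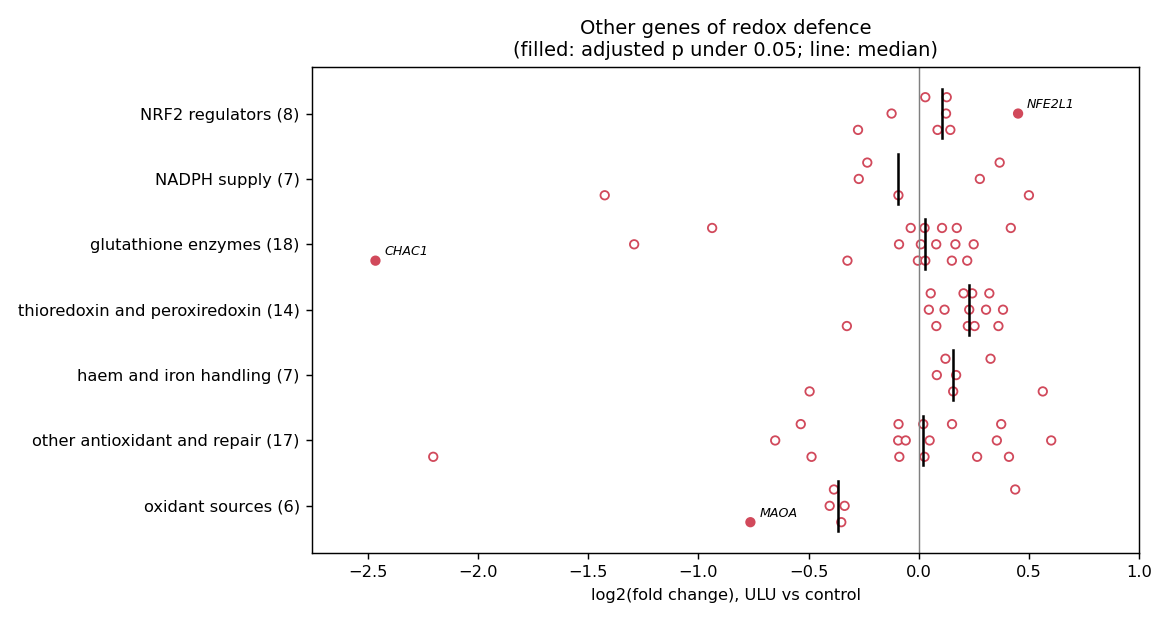
The log2(fold change) in ULU vs control of the tested genes of 7 redox lists, 1 point per gene, filled where the adjusted p was under 0.05, with a line at the median of each list. NFE2L1 is filled on the right and CHAC1 and MAOA on the left, and the medians of the redox lists lie between -0.37 and 0.23.

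The list of mitochondrial genes and the fibre markers held a few called genes in ULU vs control, while their summed levels did not pass the test. The mitochondrial list held enzymes and the regulators PPARGC1A and TFAM. Its 9 tested genes had a median log2(fold change) of 0.38, with all 9 positive, beside 47.0% of all genes. Of them, 2 were called, beside 2.98% of all genes. One of the called genes was SDHA, a subunit of succinate dehydrogenase, with 0.45 (adjusted p = 0.0423). Its call was lost in 17 of 26 alternatives, with adjusted p-values up to 0.574, and with 1 library left out it was kept in 5 of 17 fits, those without control 25, UL 27, UL 30, UL 32 or ULU 42. Summed over the list they reached 4713 ± 615 CPM (SD, n = 5, range 4120.4 to 5663) in ULU, 3865 ± 399.9 CPM (SD, n = 6, range 3399 to 4370.4) for UL and 3619 ± 484 CPM (SD, n = 6, range 2907 to 4266) in control (ULU vs control, two-sided exact permutation p = 0.0130, adjusted p = 0.130). All 6 tested markers of slow fibres had positive estimates in both comparisons against control, and 2 of them, TNNT1 (1.30, adjusted p = 0.0178) and TNNI1 (0.92, adjusted p = 0.0406), were called in ULU vs control. The call of TNNI1 was kept in 8 of the 17 fits without 1 library, those without control 25, any UL library but 28, ULU 42 or ULU 43, and that of TNNT1 in 15, all but those without ULU 40 or ULU 41. With the mitochondrial share as a covariate the values were 0.35 (adjusted p = 0.806) for TNNI1 and 0.63 (adjusted p = 0.669) for TNNT1. Of the 6 tested genes in the list of skeletal muscle fibre markers, which was not split by fibre type, TNNT3 (0.66, adjusted p = 0.0280) and MYH2 (0.53, adjusted p = 0.0397) were called. Over 26 alternatives TNNT3 lost its call in 10, 6 of them fits without control 22, 23 or 26 or ULU 40, 41 or 43, and MYH2 in 13, 9 of them fits without control 22, 23, 24 or 26, UL 29 or ULU 40, 41, 43 or 44. The summed slow fibre markers ranged from 2599 to 6006 CPM in control, 4323 to 8401 CPM in UL and 4669 to 10266 CPM in ULU, with exact permutation p-values of 0.0303 and 0.0346 against control and adjusted p-values of 0.148. The part of fibre type and of mitochondrial content in the differences of GLRX3 and SOD2 was not tested.

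Markers of cells other than fibres gave no call in ULU vs control. The 10 leukocyte markers summed to 103.97 to 266 CPM in control, 107 to 229 CPM in UL and 55.7 to 287 CPM in ULU, and all 10 had negative estimates in ULU vs control, with PTPRC at -1.04 (adjusted p = 0.191) and C1QA at -0.53 (adjusted p = 0.310). The 5 tested adipocyte markers had negative estimates too, with FABP4 at -1.10 (adjusted p = 0.170) and ADIPOQ at -1.66 (adjusted p = 0.284), and without control library 24, which held the most of both, they were -0.54 (adjusted p = 0.432) and -0.75 (adjusted p = 0.644). These markers summed to 204 to 987 CPM in control, 197 to 412 CPM in UL and 160.03 to 354 CPM in ULU. The 5 fibroblast markers ranged from 1561 to 3725 CPM in control, 2247 to 4249 CPM in UL and 1302 to 3056 CPM in ULU, with LUM at -0.52 (adjusted p = 0.154) and PDGFRA at -0.43 (adjusted p = 0.178) in ULU vs control. The 4 tested endothelial markers summed to 81.7 to 134 CPM in control, 76.5 to 220.5 CPM in UL and 86.4 to 148 CPM in ULU. Their estimates in ULU vs control went both ways, 2 higher and 2 lower, with a median of 0.038. CDH5 had 0.27 (adjusted p = 0.519) and KDR 0.43 (adjusted p = 0.332), while the estimates of PECAM1 and TIE1 were negative. Red cell RNA was scarce, with 20.1 to 64.4 CPM in control, 35.7 to 92.0 CPM in UL and 34.6 to 73.4 CPM in ULU, nearly all of it HBB (0.37, adjusted p = 0.490), beside ALAS2 (0.52, adjusted p = 0.512) and at most 2 reads of SLC4A1 in a library.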

How the data were processed

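Total RNA of longissimus dorsi muscle from 17 piglets was sequenced as single reads. After fastp trimming and HISAT2 alignment, the authors counted reads per gene and deposited these counts without normalization. Per the file headers, featureCounts 2.0.1 used the Ensembl annotation 104 of Sscrofa11.1 without options for strand, multiple placements or overlapping genes, whereas the labels name Subread 1.5.1. Rows were matched to symbols by an Ensembl table, which named 15029 genes. Of 154 listed genes, 7 were matched to RefSeq by position (at least 50% of both spans), 1 by its name in the deposited table, and 11 were not matched. Gene length, another deposited column of a different kind (unit: other), gave the values per kb.

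Counts were normalized with TMM factors and tested in edgeR 4.0.16 (filterByExpr, quasi-likelihood F test, 1 model of all 17 libraries, Benjamini-Hochberg over 14203 genes) in R 4.3.3. SE is the absolute log2(fold change) divided by the square root of F. Log2 CPM used a prior count of 2. DESeq2 1.42.0, other scaling, filters, samples and covariates, and leaving out each library, were alternatives. Library measures were tested with exact permutation tests in scipy 1.17.1. The procedure was tested on simulated data. Replicates are separate piglets by their labels, and the libraries of a diet differed by more than sampling noise in all 40 pairs. The precision of each value is limited by totals of 16137365 to 26546810 counts, and read limits cover counting error only. No batch is named, so a batch that followed the diets cannot be told apart from them.

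The members and lists were chosen with earlier results of these data known. All 10 members are named. Of the other lists, genes with an adjusted p under 0.05 are named (up to 4 a list), and otherwise the 2 with the smallest unadjusted p. Values of KEAP1, CUL3, GSS, GSR, CYBA, NOX4 and NCF1 were added outside this rule, after their values were seen. Some genes of the lists are counted but not reported by name here.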

Additional observations from a re-analysis of the deposited data

Results flagged for a closer look

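In 3 of the 30 groups formed by 10 genes and 3 diets, the highest library stood apart from the others, with a gap to its nearest neighbour over the range of the group above Dixon's critical value (0.71 for 5 libraries, 0.625 for 6). Chance alone gives about 1 in 20 such groups. For NFE2L2, control library 21 had 132.4 CPM, with a ratio of 0.753. For NQO1, ULU library 40 had 138.3 CPM, with a ratio of 0.904. For SOD2, UL library 27 had 772.7 CPM, with a ratio of 0.640.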

How the results depend on the processing

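No paired analysis was possible because the library numbers differ between the diets. Over the 10 genes and 3 comparisons, 712 alternative values kept direction and side of the threshold, 19 (all GLRX3 in ULU vs control) lost the call, 4 (all SOD2) gained one and 45 changed sign, all of them uncalled values; the cause was not tested. Genes called in UL vs control (0) were 149 with DESeq2 on the 2 diets, 152 with DESeq2 on all libraries, 2 with the mitochondrial share as a covariate and 0 to 16 (without control 25) when 1 library was left out. In ULU vs control (423) they were 825, 1069 and 8 in those fits, 111 with edgeR on the 2 diets, 228 without filter, 12 with the total count as a covariate and 147 (without ULU 43) to 799 (without control 25). In ULU vs UL (5) they were 246, 252, 2, 1, 8 and 1 in the same order, 9 without scaling factors, 9 with a mean count of at least 50 and 1 to 7 when 1 library was left out.

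Of the 10 genes, 2 were called in ULU vs control by both DESeq2 fits and 0 with edgeR on the 2 diets, without scaling factors, without filter, with either covariate or with the limit of 1 on the log2(fold change), and 0 to 2 (without UL 27) when 1 library was left out. In ULU vs UL, 1 was called by DESeq2 on all libraries, beside 0.982% of the genes with a p-value in that fit. The DESeq2 fits of ULU vs control called 3.34% of such genes on the 2 diets and 4.17% on all libraries. Calls among the other redox genes were 2 and 1 with DESeq2 in UL vs control, 2 and 2 for ULU vs UL, and for ULU vs control (3) they were 7 and 10 with DESeq2, 1 with edgeR on the 2 diets, 0 with either covariate and 1 to 8 when 1 library was left out. Of all genes tested, the same DESeq2 fits called 149 of 25003 and 152 of 25660 in UL vs control. They called 246 of 24604 and 252 of 25660 in ULU vs UL, and 825 of 24673 and 1069 of 25660 in ULU vs control.

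With the mitochondrial share as a covariate, these estimates changed sign: HMOX1 (-0.37), NQO1 (-0.24), TXNRD1 (-0.15) and SOD2 (-0.18) in UL vs control, for ULU vs control NQO1 (-0.21), GCLM (-0.14), TXNRD1 (-0.056) and CAT (-0.016), and in ULU vs UL SOD1 (-0.0065). Without scaling factors they were HMOX1 in UL vs control (-0.074), GCLM (-0.12) and CAT (-0.10) in ULU vs control and SOD1 in ULU vs UL (-0.089). SOD1 also changed sign without filter in ULU vs control (0.0081) and, in ULU vs UL, with a mean count of at least 50 (-0.026) and with the total count as a covariate (-0.016), where GCLC was -0.013. When 1 library was left out, HMOX1 ranged from -0.14 to 0.19 in UL vs control, -0.50 to 0.093 in ULU vs control and -0.53 to 0.079 in ULU vs UL. SOD1 ranged from -0.072 to 0.048, -0.10 to 0.055 and -0.093 to 0.070 in these comparisons. SOD2 in UL vs control ranged from -0.11 (without UL 27) to 0.15 and GCLM in ULU vs control from -0.021 to 0.28. In ULU vs UL, NQO1 ranged from -0.012 (without ULU 40) to 0.48, GCLC from -0.016 to 0.23 and GCLM from -0.25 to 0.0012. Depth limits HMOX1 and GCLC most, with as few as 46 and 49 reads in a library.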
